A study of Mus musculus with 2 samples.

Results

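Axon guidance genes encode the ligands and receptors by which growing nerve fibres are attracted or repelled. They were examined here in a T cell acute lymphoblastic leukaemia (T-ALL) that arose in a mouse and is named ALL65. The set holds 50 named genes out of 27179 genes in the count table: Slit ligands, Robo receptors and their cytoplasmic srGAP partners, repulsive guidance molecules with neogenin and netrins, semaphorins, plexins and neuropilins, and Eph receptors with ephrins. They were picked by gene name within these families, with ratios from the same pair of libraries already known, so the ratios below describe the genes and are no independent evidence about the set.

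The leukaemia carries the transgenes Vav-tTA and TRE-GFP-shIkaros, and both groups share them. The Vav promoter drives the tetracycline transactivator in blood-forming cells, and the transactivator turns on a short hairpin RNA against Ikaros (Ikzf1) that is linked to green fluorescent protein (GFP). Without doxycycline (Dox) Ikaros is held down. Dox stops the hairpin, so that Ikaros comes back from the cell's own gene. Leukaemia cells were sorted from spleens of recipient mice, as GFPhigh cells from untreated animals and as GFPmid cells from animals on Dox for 3 days. Treatment and sort gate therefore cannot be told apart. The design text speaks of 3 mice in each group, but the table holds 1 column of counts for each, and a single primary leukaemia was studied. The sources used here give neither the ages nor the strains of the recipients.

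With 1 library per group there is no replicate error, no test and no p-value. Intervals in parentheses or after "interval" are exact 95% counting intervals (Clopper-Pearson for ratios, Poisson for levels), and they cover counting error only. Total counts were 7477988 without Dox and 14457475 with Dox. Where values are written as one against another, the untreated library comes first and the Dox library second. Levels are in CPM, counts scaled to a common library size, after scaling by the trimmed mean of M values (TMM). For a count of 0 the interval reaches 0.485 CPM without Dox and 0.259 CPM with Dox. The level of 3 counts is 0.395 CPM without Dox and 0.211 CPM with Dox. Ikzf1 stood at 262 CPM without Dox and 1455 CPM with Dox. Of 10 T cell markers 9 were measured, meaning a mean of at least 1 CPM over both libraries. The exception was Ptcra, with 3 counts and 0 counts. Higher with Dox stood Cd8b1 (2.40-fold), Trac (2.07-fold), Cd4 (1.78-fold), Cd8a (1.74-fold) and Thy1 (1.07-fold). Lower stood Cd3g (1.21-fold), Cd3d (1.19-fold), Lck (1.16-fold) and Cd3e (1.07-fold). All 8 B cell markers were under 1 CPM.

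In the nervous system, Slits bind Robo receptors and push axons away from the midline, netrins act through Dcc, neogenin and Unc5 receptors, and semaphorins signal through plexins, with neuropilins as co-receptors for the secreted class. Ephrins bind Eph receptor tyrosine kinases on neighbouring cells. Several of these families also work in the immune system: Sema4a and Sema4d take part in T cell responses, Sema7a acts on integrins, and Ephb6, a kinase-dead Eph receptor, is abundant in thymocytes.

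Only some of the guidance genes were measured in these cells, as was so for genes at large. Of the 50 members, 25 were measured and 15 had no count in either library. Of all 27179 genes, 11498 were measured and 11503 had no count in either library. The other 10 members had a count but a mean under 1 CPM, with at most 4 counts without Dox and 12 with Dox, both for Unc5a. Together the members took 0.115% of all counts without Dox and 0.111% with Dox. Sema4d, Ephb6, Ephb2 and Srgap2 alone held 44.4% and 50.3% of the members' counts.

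Of the measured members 23 had 5 CPM or more in the library where they stood higher. Among these, 4 stood at least 2-fold lower with Dox, namely Rgma, Slit1, Nrp1 and Sema3f. Of all genes past the same 5 CPM minimum, 2.24% did so. Sema4f and Sema4a stood at least 2-fold higher, beside 2.21% of all genes. Since the members were taken up with this contrast in view, nothing is read from these shares. At least 8-fold lower were Rgma and Slit1, beside 0.148% of all genes, and nothing is read from this share either. Both passed 5 CPM only without Dox. Within 1.5-fold lay 14 of the 23, beside 87.5% of all genes. The 25 measured members had a median log2 ratio of Dox over untreated of -0.01, and all 11498 measured genes had one of 0.01. Just inside the 2-fold line was Sema4a with a log2 ratio of 1.05, and just outside were Epha2 with -0.93 and Ephb6 with 0.83.

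**Figure D1:**
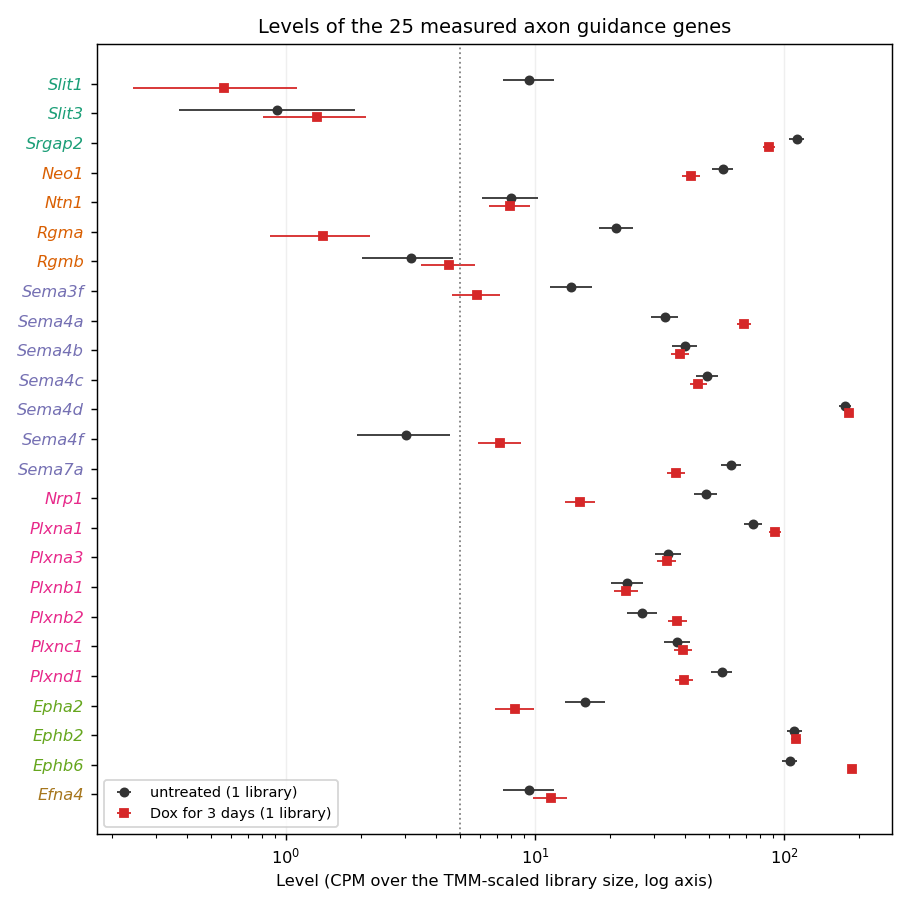
Levels of the 25 measured genes in the untreated library (circles) and the Dox library (squares), in CPM on a log axis, with 95% counting intervals; label colours mark the families and the dotted line marks 5 CPM. The points of Slit1 and Rgma lie farthest apart, while those of Sema4d, Ephb2 and Ntn1 nearly coincide.

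Rgma, a lipid-anchored ligand that repels axons through neogenin and also serves as a co-receptor for bone morphogenetic proteins (BMPs), had the lowest ratio of the set. It lies on chromosome 7 from 73375520 to 73419899 in mm10 (Entrez Gene 244058). It had 161 counts without Dox and 20 with Dox, that is 21.2 CPM (interval 18.04 to 24.7) and 1.41 CPM (interval 0.859 to 2.17). The log2 ratio was -3.75 (-4.66 to -3.24), or 13.4-fold lower with Dox. The ratio interval lay wholly below 0, as did those of 23.8% of all genes past 5 CPM.

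The related gene Rgmb did not share this size. It had 24 against 64 counts, or 3.16 against 4.499 CPM, and a log2 ratio of 0.49 (-0.19 to 1.25), an interval that spans 0. Neo1, which encodes neogenin, the receptor of both RGM proteins, was well measured at 56.6 CPM without and 42.3 CPM with Dox. Its log2 ratio was -0.42 (-0.60 to -0.24), so the receptor stood 1.34-fold lower while the ligand Rgma stood more than 10-fold lower. Ntn1, which encodes netrin 1, stood at 8.03 against 7.94 CPM, and its log2 ratio of -0.01 (-0.48 to 0.46) spans 0. Of the netrin receptors other than neogenin, Dcc had no count in either library, Unc5a had 4 against 12 counts, and Unc5b had 2 and 1. Ntn4 had no count.

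Slit1, a secreted ligand of Robo receptors, was the other gene past 8-fold. It lies on chromosome 19 from 41597824 to 41747275 (Entrez Gene 20562). It had 72 counts without Dox and 8 with Dox, or 9.47 CPM (interval 7.41 to 11.9) and 0.562 CPM (interval 0.243 to 1.11). The log2 ratio was -3.70 (-5.34 to -3.02), or 12.95-fold lower with Dox. The wide lower bound comes from the 8 Dox counts.

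No Robo receptor was measured beside the Slit ligands. Robo2, Robo3 and Robo4 had 0 counts in both libraries, and Robo1 had 1 count without Dox and 0 with Dox. Slit2 had no count, and Slit3 had 7 against 19 counts, at 0.921 against 1.34 CPM, with a log2 ratio of 0.46 (-0.78 to 2.03) that leaves its direction undetermined at this depth. Srgap2, a cytoplasmic partner of Robo that also shapes membranes without it, was among the most abundant members at 112 against 86.9 CPM. Its log2 ratio was -0.37 (-0.49 to -0.24). Srgap1 had no count, and Srgap3 had 2 and 4.

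**Figure D2:**
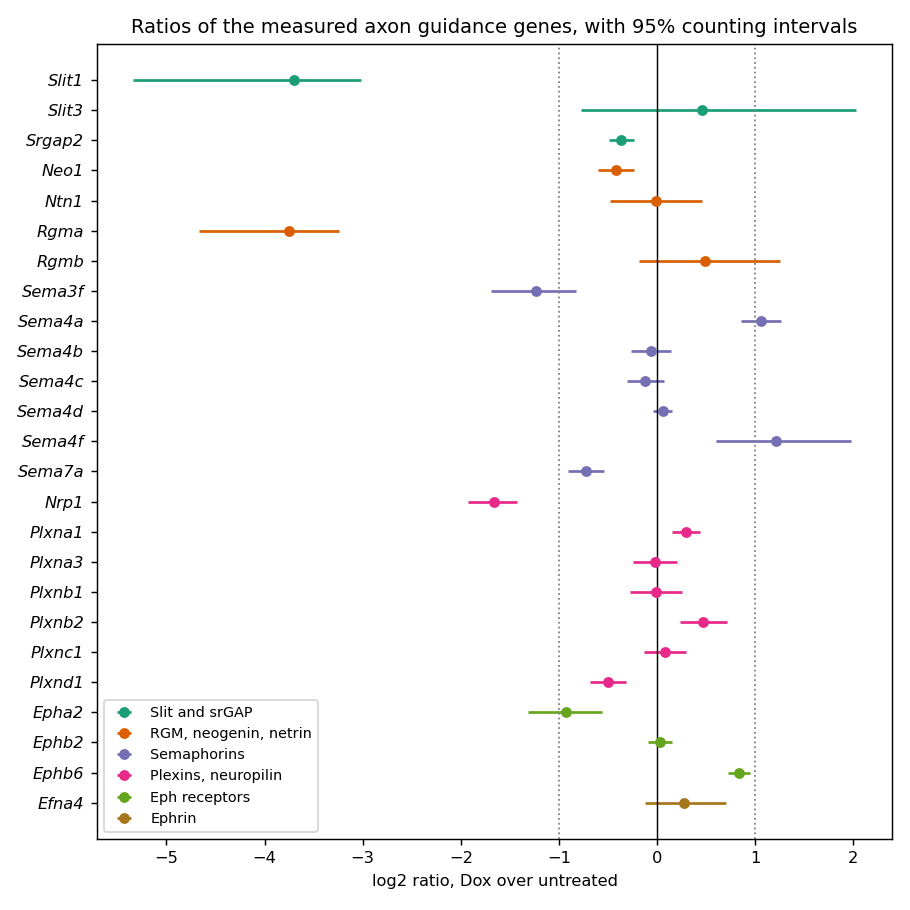
Log2 ratio of Dox over untreated for each measured gene, coloured by family, with its 95% counting interval; dotted lines mark 2-fold in either direction. Slit1 and Rgma lie near -3.7, apart from every other member, and the lower end of the next gene's interval, that of Nrp1, is -1.92.

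Semaphorins stood on both sides of 0. Sema3f, a secreted semaphorin that repels axons and endothelial cells, had 106 against 83 counts, or 13.9 against 5.83 CPM. Its log2 ratio was -1.23 (-1.69 to -0.83), or 2.35-fold lower with Dox. It lies on chromosome 9 from 107681499 to 107710475. The other secreted semaphorins listed, Sema3a, Sema3c and Sema3d, had no count in either library. Sema7a, a lipid-anchored semaphorin that binds integrins and plexin C1, stood at 61.1 against 36.8 CPM with a log2 ratio of -0.73 (-0.91 to -0.55). This is 1.65-fold lower, short of the 2-fold line.

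The transmembrane semaphorins of class 4 included both members at least 2-fold higher with Dox. Sema4a, which takes part in T cell priming and helper cell differentiation, lies on chromosome 3 from 88435959 to 88461182. It had 252 counts and 982 counts, or 33.2 CPM (interval 29.2 to 37.5) and 69.0 CPM (interval 64.8 to 73.5), and a log2 ratio of 1.05 (0.86 to 1.26). Sema4f, on chromosome 6 from 82911884 to 82939769, had 23 against 103 counts, or 3.03 against 7.24 CPM, and a log2 ratio of 1.21 (0.60 to 1.98). Both ratio intervals lay wholly above 0, as did those of 26.9% of all genes past 5 CPM. Sema4f passed 5 CPM only with Dox.

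The remaining class 4 genes stood at like levels in both libraries. Sema4d, also called CD100 and long known from T cells, had the highest CPM of the members without Dox, 175, and stood at 182 with Dox, second to Ephb6, with a log2 ratio of 0.06 (-0.04 to 0.15). Sema4b stood at 39.9 against 38.1 CPM with a ratio of -0.07 (-0.27 to 0.14), and Sema4c at 49.1 against 45.2 CPM with one of -0.12 (-0.31 to 0.07). All 3 intervals span 0 and stay within 1.5-fold. Sema6b and Sema6d were under 1 CPM.

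By the form of the ligand, the secreted members had 2 genes at least 2-fold lower among 3 past 5 CPM (Slit1 and Sema3f), and the lipid-anchored members had 1 among 3 (Rgma). The transmembrane ligands had 0 lower and 2 higher among 5 past 5 CPM. Summed over all members of a form, secreted ligands stood at 32.4 CPM without and 15.7 CPM with Dox, lipid-anchored ligands at 95.002 against 54.268 CPM, and transmembrane ligands at 300.4 against 342 CPM. These forms were sorted after the values were seen, and the split has no test. All ligands together stood at 428 against 412 CPM, and all receptors at 589 against 630 CPM. Past 2-fold were 5 of 11 ligands with at least 5 CPM, and 1 of 11 receptors, Nrp1. Beside the shares of all genes given above, 2.24% lower and 2.21% higher, nothing is read from these counts.

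Nrp1 encodes neuropilin 1, a co-receptor of secreted semaphorins and of vascular endothelial growth factor that is also carried by some T cells. It lies on chromosome 8 from 128358591 to 128505476 (Entrez Gene 18186). It had 368 against 216 counts, or 48.4 CPM (interval 43.6 to 53.6) and 15.2 CPM (interval 13.2 to 17.3). The log2 ratio was -1.66 (-1.92 to -1.43), or 3.16-fold lower with Dox. Nrp2, the neuropilin that binds Sema3f, had no count in either library.

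The 6 measured plexins, the signalling receptors of semaphorins, lay within 1.5-fold. Plxnd1 was lowest, at 56.1 against 39.6 CPM with a log2 ratio of -0.50 (-0.68 to -0.31), and Plxnb2 was highest, at 26.8 against 37.3 CPM with one of 0.47 (0.24 to 0.71). Plxna1 stood at 74.9 against 91.7 CPM, with a ratio of 0.29 (0.15 to 0.44). The other measured plexins had intervals that span 0: Plxna3 at -0.02 (-0.24 to 0.20), Plxnb1 at -0.01 (-0.28 to 0.26) and Plxnc1, the receptor of Sema7a, at 0.08 (-0.13 to 0.29). Plxna2 had no count.

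Of the Eph receptors, Ephb2 and Ephb6 were abundant, and Epha2 was less so. The one measured ephrin of the set was Efna4. Per kilobase of gene length, Epha2 stood at 4.05 against 2.11 CPM and Efna4 at 5.94 against 7.22 CPM. Ephb2 stood at 110 against 111 CPM with a log2 ratio of 0.02 (-0.10 to 0.15). Ephb6 stood at 105 against 187 CPM, from 798 against 2665 counts, and its log2 ratio of 0.83 (0.72 to 0.95) is 1.78-fold higher with Dox. Epha2 went the other way, with 121 against 118 counts, 15.9 against 8.29 CPM and a log2 ratio of -0.93 (-1.32 to -0.56). Epha3 and Epha4 had no count and Ephb4 had 1 in each library. Efna4 stood at 9.47 against 11.5 CPM with a ratio of 0.28 (-0.13 to 0.70). Efna1, Efnb1 and Efnb2 had between 0 and 2 counts per library, and Efna5 had none. Outside the set, Efna2 stood at 2.63 against 3.59 CPM and Efnb3 at 2.50006 against 3.37418 CPM, both under the 5 CPM minimum.

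Across 1.5-fold, 6 of the 23 members past 5 CPM stood lower, beside 6.18% of all genes, and 3 stood higher, beside 6.28%. The 1.5-fold line adds Sema7a and Epha2 to the lower genes and Ephb6 to the higher ones. Counting intervals lay wholly below 0 for 9 members, beside 23.8% of all genes, and wholly above 0 for 5, beside 26.9%.

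**Figure D3:**
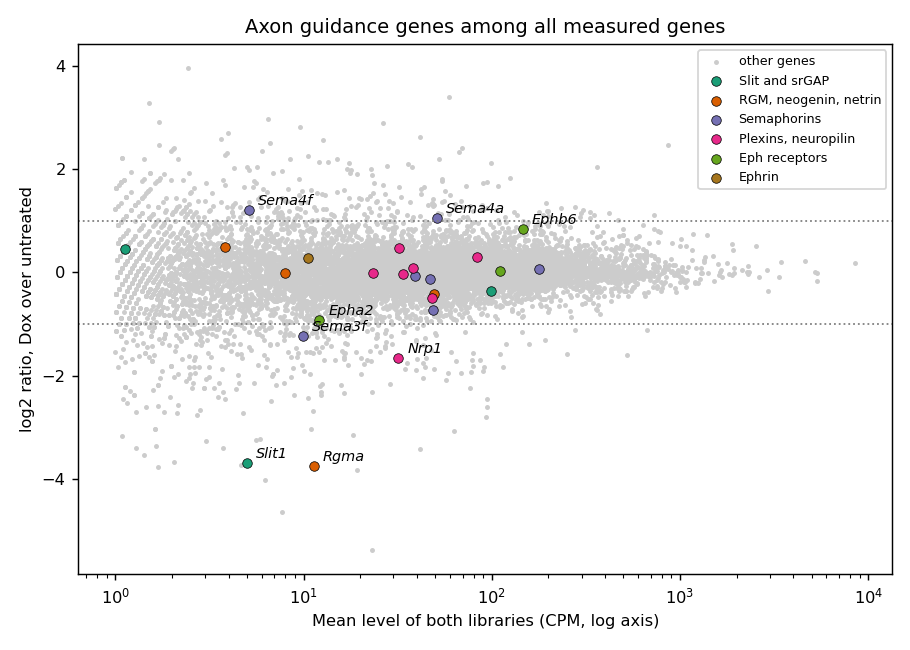
Log2 ratio of Dox over untreated against the mean level of both libraries (CPM, log axis) for all measured genes in grey and the measured guidance genes in colour. Slit1 and Rgma lie at the lower edge of the cloud, at mean levels where grey points are also widely spread.

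Levels of different genes were compared per kilobase of the gene length given in the table. On that scale Sema4d led the untreated library with 40.0 CPM per kilobase, followed by Ephb6 with 27.9, Ephb2 with 22.9 and Sema7a with 18.6. In the Dox library Ephb6 led with 49.8, followed by Sema4d with 41.6, Ephb2 with 23.3 and Sema4a with 20.01. Among the 25 measured members Sema4a held rank 8 without and rank 4 with Dox, Nrp1 rank 10 and 17, and Rgma rank 14 and 23. For most neighbours in this order the counting intervals overlapped, in 16 of 24 pairs without and 17 of 24 with Dox. The median measured member had 5.94 CPM per kilobase without and 5.68 with Dox, below the medians of all measured genes, 14.2 and 14.4.

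Ligands were set beside their textbook receptors, pairs that were written down after the levels were known. Of 29 pairs, 13 had both partners measured, 9 the ligand alone, 6 the receptor alone and 1 neither. The 13 include Rgma with Neo1, Sema4a and Sema4d with Plxnb1 and Plxnb2, Sema7a with Plxnc1, and Efna4 with Epha2. Every pair of a Slit with a Robo had the ligand alone. Ephb2 and Ephb6 had no measured ephrin B partner in the set, and Sema3a, a ligand of Nrp1, had no count.

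Promoters were compared with the letters that Ikaros binds, whose core is GGGAA and which are often written TGGGAA. The Notch factor RBPJ binds sites that share TGGGAA, so such letters cannot separate the 2 proteins. RefSeq promoters of GRCm38.p6, each from 250 bases before to 50 after a gene start, were found for 44 of the 50 members. Of the 6 genes past 2-fold, Nrp1, Sema4a and Sema4f had an entry. They are printed 5′ to 3′ on the strand of the gene, as examples of a gene lower with Dox and 2 genes higher with Dox. Capitals mark GGGAA or its reverse complement TTCCC, with the further T (or A) where TGGGAA is complete.
Nrp1 (chr8:128358823-128359122, + strand): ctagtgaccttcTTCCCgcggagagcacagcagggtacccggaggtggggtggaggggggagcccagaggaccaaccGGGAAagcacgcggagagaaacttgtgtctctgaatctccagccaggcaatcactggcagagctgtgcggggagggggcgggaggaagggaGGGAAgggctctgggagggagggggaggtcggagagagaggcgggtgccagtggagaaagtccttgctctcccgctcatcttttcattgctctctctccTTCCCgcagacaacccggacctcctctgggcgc
Sema4a, the farthest upstream of 4 listed starts (chr3:88461133-88461432, - strand): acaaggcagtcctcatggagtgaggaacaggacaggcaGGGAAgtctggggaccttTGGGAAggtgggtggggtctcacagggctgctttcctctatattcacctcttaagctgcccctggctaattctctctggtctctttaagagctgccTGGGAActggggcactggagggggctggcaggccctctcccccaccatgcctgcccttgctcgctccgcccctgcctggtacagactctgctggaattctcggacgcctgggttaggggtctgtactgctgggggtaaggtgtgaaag
Sema4f (chr6:82939720-82940019, - strand): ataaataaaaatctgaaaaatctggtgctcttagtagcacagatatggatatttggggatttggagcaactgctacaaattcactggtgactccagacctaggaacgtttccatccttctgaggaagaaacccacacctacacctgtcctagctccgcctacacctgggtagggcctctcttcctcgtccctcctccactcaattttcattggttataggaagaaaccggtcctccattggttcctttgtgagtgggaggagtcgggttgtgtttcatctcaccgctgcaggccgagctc

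The Nrp1 window held GGGAA 4 times over both strands and TGGGAA 0 times. The Sema4a window held GGGAA 3 times, of which 2 were TGGGAA and 1 of these the longer CTGGGAA. The other 3 listed starts of Sema4a held GGGAA 1, 3 and 2 times and TGGGAA 0 times. The Sema4f window held none. GGGAA is common: on either strand it occurred in 62.7% of all 32851 promoters in the table and in 55.9% of the 59 promoters of members. TGGGAA occurred in 25.6% of all promoters and 18.6% of the members' promoters, and CTGGGAA in 11.1% and 8.47%. GGGAA lies within TGGGAA, so the counts are not separate. The shares were not matched for base composition. The median content of G and C was 52.7% over all promoters and 64.8% over those of measured members. Of the 6 windows of Nrp1, Sema4a and Sema4f, 4 of them starts of Sema4a, GGGAA occurred in 5 (83.3%) and TGGGAA and CTGGGAA in 1 each (16.7%). These are too few to set against the whole table, and a match is a description of letters, not of a bound site.

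The nearest listed genes were read beside each of the 6 members past 2-fold, 2 on each side, since they were not used to choose the set. Of 24 neighbours 16 were past the 5 CPM minimum, and 13 of these lay within 1.5-fold, beside 87.5% of all genes. Between 1.5-fold and 2-fold lower lay Hk2 beside Sema4f, at -0.90 (-1.12 to -0.70), and Itgb1 beside Nrp1, at -0.63 (-0.70 to -0.57). Slc38a3, a glutamine transporter gene 12.5 kb from Sema3f, was the exception past 2-fold, with 50 against 15 counts, or 6.58 against 1.05 CPM, and a log2 ratio of -2.45 (-3.58 to -1.79). Gnat1, between them, had no count, and Rbm5 on the other side of Sema3f had a ratio of 0.32 (0.23 to 0.42). Beside Slit1, Lcor had a ratio of 0.05 (-0.47 to 0.59) and Arhgap19 one of 0.36 (0.26 to 0.46).

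Beside Rgma, the antisense transcript A730056A06Rik, which overlaps its start on the opposite strand, had 20 against 4 counts and a log2 ratio of -2.60 (-5.23 to -1.65). It shares 258 bases with exons of Rgma in GENCODE M21, 6.88% of the Rgma exon length. The strand setting of the counting is not given, so reads in those bases cannot be assigned to either gene. Chd2, 6.75 kb beyond the other end of Rgma, had a ratio of 0.14 (0.01 to 0.26). Of the 25 measured members, 6 shared exon bases with another annotated gene: Rgma, Efna4, Nrp1, Plxna1, Plxnb1 and Plxnc1.

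**Figure D4:**
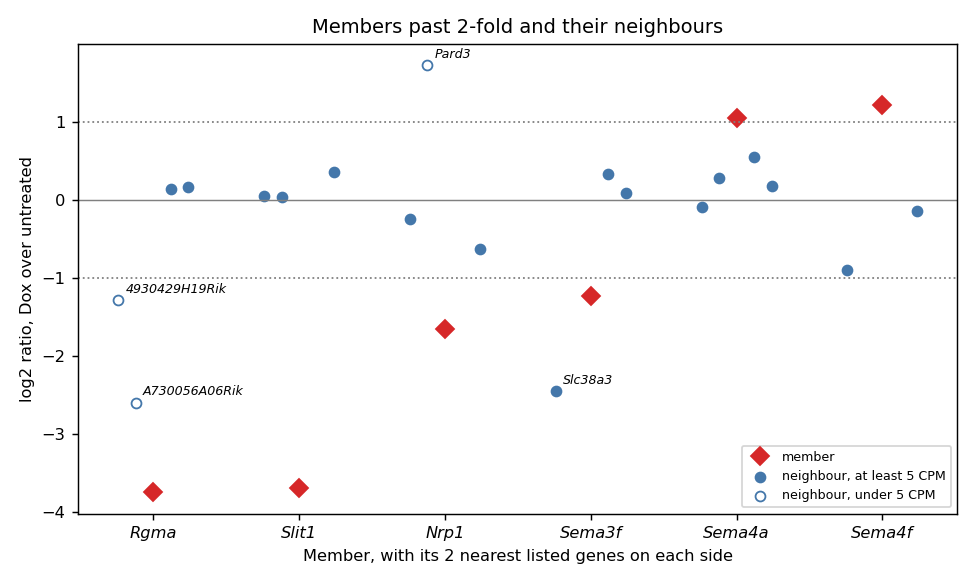
Log2 ratio of Dox over untreated for each guidance gene past 2-fold (diamonds) and the 2 nearest listed genes on each side (circles, open where under 5 CPM; genes with no count are left out). Most filled circles lie between the dotted 2-fold lines, and Slc38a3 beside Sema3f lies below them at -2.45.

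Other genes of the pathway came from lists that do not overlap the members. Of 62 genes that carry guidance signals into the cell, such as exchange factors, kinases and actin regulators, 43 had at least 5 CPM. One, Dock1, stood at least 2-fold lower and one, Arhgef11, at least 2-fold higher, each 2.33% of the 43. Dock1 activates Rac and takes part in netrin signalling. It had 1075 against 537 counts, or 141 against 37.7 CPM, and a log2 ratio of -1.90 (-2.06 to -1.76). Arhgef11, which acts downstream of B-class plexins, had 15 against 76 counts and a ratio of 1.36 (0.63 to 2.34). The next largest were Ssh2, a phosphatase that activates cofilin, at 0.73 (0.62 to 0.85), and Vav3, a signalling protein used by Eph receptors, at -0.72 (-1.03 to -0.43). The 47 measured effectors had a median log2 ratio of 0.21. Counting intervals lay above 0 for 25 of the 43 past 5 CPM (58.1%) and below 0 for 10 (23.3%), beside the 26.9% and 23.8% of all genes given above. Within 1.5-fold lay 34 of the 43 (79.1%), beside 87.5% of all genes. Counting intervals are narrow for abundant genes such as Cfl1, at 1238 against 1456 CPM. The shares were not matched for level and the list was chosen with earlier results known, so nothing is read from them.

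Of 16 genes on the BMP side of RGM signalling, 10 had at least 5 CPM, and 3 of these (30%) stood at least 2-fold lower and 0 higher, beside 2.24% and 2.21% of all genes. These were Id1, a target gene of BMP signals, at -1.42 (-2.26 to -0.77), and the receptor genes Acvr2b at -1.11 (-1.69 to -0.60) and Acvr1 at -1.08 (-1.74 to -0.50). They rested on 41 against 27, 65 against 55, and 50 against 43 counts. All 3 passed 5 CPM only without Dox, at 5.39 against 1.90, 8.55 against 3.87 and 6.58 against 3.02 CPM. The list was chosen with earlier results of these data known, so nothing is read from its share. Id3, a related and far more abundant gene, stood at 281 against 386 CPM with a ratio of 0.46 (0.38 to 0.53). Bmp2, Bmp4 and Bmp6 had no count.

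Of 33 family members outside the set, 2 had at least 5 CPM. Sema6a, a transmembrane semaphorin, had 107 against 86 counts and a log2 ratio of -1.20 (-1.65 to -0.80), lower with Dox unlike the class 4 transmembrane genes past 2-fold. Sema4g stood at 6.45 against 8.86 CPM with a ratio of 0.45 (-0.03 to 0.96). Among immune receptors of semaphorins, Itgb1, the integrin chain that binds Sema7a, stood at 444 against 287 CPM with a ratio of -0.63 (-0.70 to -0.57). It is also the second listed gene beyond Nrp1, 180 kb away. Ptprc, a partner of Sema4d, stood at 0.52 (0.48 to 0.56), and Cd72, the B cell receptor of Sema4d, had 2 against 9 counts.

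**Figure D5:**
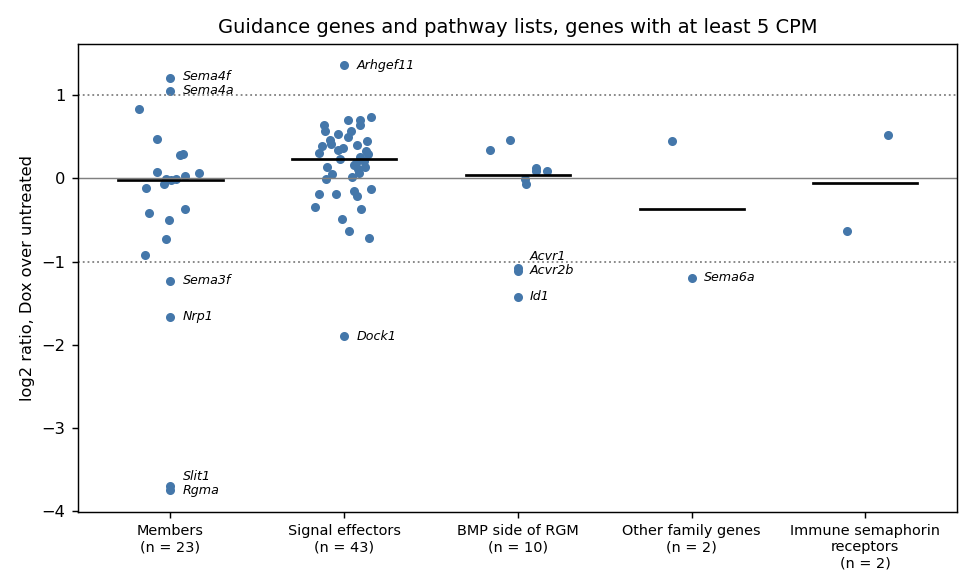
Log2 ratio of Dox over untreated for the 23 guidance genes with at least 5 CPM and for the genes of 4 pathway lists past the same minimum; horizontal bars are medians of the plotted genes, and genes past 2-fold are named. Slit1 and Rgma lie below every gene of the other lists, of which Dock1 at -1.90 is lowest.

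Some guidance genes are also transcribed in other cells of a spleen, so markers of these were read in the same libraries. The 10 neural and Schwann cell markers summed to 6.45 CPM without and 4.43 CPM with Dox, and Snap25, Map2, Gfap, S100b and Sox10 had no count. Of 12 stromal and endothelial markers, Cdh5, Kdr, Col3a1 and Dcn had no count in either library. Their sum was 362 against 331 CPM, nearly all from Col1a2, Pecam1 and Pdgfrb. Pdgfrb and Col1a2 stood lower with Dox, with log2 ratios of -1.72 (-2.04 to -1.45) and -0.56 (-0.67 to -0.45), and Pecam1 stood higher, with one of 0.37 (0.27 to 0.47). The 12 myeloid and dendritic markers summed to 76.1 CPM without and 31.2 CPM with Dox. S100a8 and Mpo had no count, and Csf1r had 4 against 8 counts. H2-Aa, at 47.4 against 10.4 CPM, made up most of the sum without Dox but not with Dox. Cd74, at 11.6 against 1.898 CPM, and Lyz2, at 7.24 against 1.69 CPM, also stood lower. Itgam, past 5 CPM on the same list, stood higher with Dox, at 8.42 against 14.7 CPM and a log2 ratio of 0.79 (0.39 to 1.23), and Flt3 had 3 against 19 counts. Of 6 natural killer (NK) cell markers, Nkg7 had 9 against 41 counts and Prf1 had 3 against 35, both under 5 CPM. Klrb1c had 3 counts in each library, and Ncr1, Klrk1 and Klrd1 had none. The 8 erythroid and platelet markers in the count table summed to 4.61 CPM without and 6.68 CPM with Dox, and 0 of them passed 5 CPM. The markers thus did not move one way. H2-Aa, Cd74 and Lyz2 stood lower alongside Rgma, Slit1, Nrp1 and Sema3f, and their part in those ratios was not tested. In libraries of bulk RNA, fewer cells that carry a transcript and less of it per cell cannot be told apart.

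How firmly the ratios are placed follows from their counts. The distance from the middle to either end of the counting interval had a median of 0.22 on the log2 scale over the 25 measured members, and it ranged from 0.10 for Sema4d to 1.40 for Slit3. With the bound nearest 0 in place of the ratio, Rgma, Slit1 and Nrp1 were still at least 2-fold lower, and Sema3f, Sema4a and Sema4f did not reach 2-fold. A minimum of 20 CPM in place of 5 leaves Slit1, Sema3f and Sema4f out.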

How the data were processed

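The deposited files hold raw counts, in whole reads for each gene. CASAVA 1.8.2, featureCounts and the build mm10 are named, per the submitters' processing notes. The aligner, annotation, strand setting, handling of shared reads and the way mice and sequencing runs were combined are not given in the sources at hand. The series table and the separate files of the libraries differed in 0 values.

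Symbols and positions came from RefSeq (GRCm38.p6, the assembly behind mm10) for 25275 of 27179 genes and from GENCODE M21 for 18 more symbols. Counts were scaled by TMM (edgeR 4.0.16, R 4.3.3), with factors of 1.02 and 0.984. Log2 ratios used a prior count of 2, which pulls low genes towards 0. Intervals used none. With 1 library per group, a size rule (2-fold and 5 CPM in the higher library) stood in for a test. The ratio, rule and intervals were tested on simulated data that held counting error only, with no spread between mice. The 200 genes changed there were drawn from mean levels above those of Rgma, Slit1, Sema3f and Sema4f.

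All members were accounted for. Members past a mean of 1 CPM were named with values, as were up to 4 genes per pathway list with the largest ratios and at least 5 CPM. Members and lists were chosen with earlier results of these data known. The roles, ligand forms, receptor pairs and a few further genes were chosen after their values were seen. Alternatives were DESeq2 1.42.0 size factors, total counts, other prior counts and CPM minimums, thinned Dox counts, removal of the trend with gene length, and the interval bound. Python 3.11.15 with numpy 2.4.6, pandas 2.3.3 and matplotlib 3.10.9 served for the rest.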

Additional observations from a re-analysis of the deposited data

How the results depend on the processing

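The 4 members at least 2-fold lower and the 2 at least 2-fold higher kept these counts with prior counts of 0.5 and 5, DESeq2 size factors, total counts, thinned Dox counts, the length trend removed, and CPM minimums of 1 or none. With a minimum of 20 CPM the counts were 2 lower and 1 higher, since fewer genes pass. With the interval bound nearest 0 past 2-fold they were 3 lower and 0 higher. The median log2 ratio of the measured members ranged from -0.06 to 0 over its alternatives, against -0.01 as reported. Of 150 single ratios (25 genes under 6 alternatives), 150 stayed inside their counting interval and 0 changed direction among the genes past 2-fold. No paired analysis was possible because each group had 1 library. Depth limits Slit3 and Slit1 most, which have the widest intervals, and the spread between mice cannot be seen.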

Other observations

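Ephb6 lies next to the T cell receptor beta locus on chromosome 6, and its surroundings were read after its ratio was seen. Trbc2, the constant segment 55.7 kb away, had 11386 against 23917 counts and a log2 ratio of 0.17 (0.13 to 0.20), and Trbc1 one of 0.19 (0.01 to 0.36). Both were below the 0.83 (0.72 to 0.95) of Ephb6, and the intervals do not overlap. Trpv6, a calcium channel gene 0.11 kb from Ephb6 in the RefSeq table, had 40 against 116 counts, or 5.26 against 8.15 CPM, and a ratio of 0.61 (0.10 to 1.19). Trpv5 and Kel, farther along, had at most 3 counts in each library. The T cell receptor alpha constant gene Trac, on another chromosome, stood at 217 against 448 CPM with a ratio of 1.05 (0.97 to 1.13).

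Unc5c, a netrin receptor outside the set, had 9 counts without Dox and 1 with Dox and a log2 ratio of -2.43 (-9.53 to -1.22). Crmp1, which encodes a mediator of semaphorin signals in neurons, had 1 against 17 counts and a ratio of 2.13 (0.51 to 8.57), and Fes, a kinase that binds plexins, had 1 and 21 with one of 2.398 (0.85 to 8.86). Each was under 5 CPM in both libraries.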
